A study of Mus musculus with 9 samples.

Results

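The nuclear genes of the respiratory chain and of ATP synthase were described over 9 clones of mouse embryonic stem cells. They were chosen by a rule on names, with earlier results of these data known. The rule took protein-coding nuclear genes whose symbols begin with Nduf, Uqcr, Atp5, or Cox and a digit, and 99 of 35580 genes met it. Of these, 93 passed a filter of a mean of 1 CPM or more by plain library size, as did 13378 genes in all. The 6 that did not were Cox4i2, Cox6a2, Cox7b2, Cox8b, Cox8c and a second gene annotated as Atp5o, a readthrough model that shares 94% of its 31-base words with other genes. Levels by clone in CPM are counts scaled by effective library size. By symbol, the 99 divide into 38 complex I genes, 8 complex I assembly factors, 8 complex III genes, 18 complex IV genes, 9 complex IV assembly factors, 17 ATP synthase genes and Atp5s, an ATP synthase associated protein.

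All clones came from the mouse embryonic stem cell line E14, had been picked from the bulk line for a spread of lipid droplet sizes, and were grown in serum with leukaemia inhibitory factor on gelatin without a named treatment. Which clone had which droplet size is not stated in the labels, so no groups were formed, and each clone is a single library with no replicate. Poly(A) RNA was sequenced, with 10783718 estimated counts in clone 1 and 12926691 to 14309662 in the others. The 7 stem cell markers listed, among them Pou5f1, Sox2 and Nanog, passed the filter and summed to 2661 to 4241 CPM, lowest in clones 10 and 11 (2950 and 2661 CPM). Fibroblast markers summed to 49.8 and 59.0 CPM in clones 10 and 11 and to 5.85 to 19.1 CPM in the other 7, led in clones 10 and 11 by Col1a1 (33.4 and 42.5 CPM), with at most 0.629 CPM of Dcn, 0.489 CPM of Postn and 0.0762 CPM of Lum in any clone. Thy1, also on that list, had 7.39 and 7.54 CPM in clones 10 and 11 and 4.35 to 10.4 CPM over all clones.

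Complex I (NADH dehydrogenase), complex III (the cytochrome bc1 complex) and complex IV (cytochrome c oxidase) pass electrons from NADH to oxygen and pump protons across the inner mitochondrial membrane. ATP synthase uses the returning protons to make ATP. Each of these complexes joins core subunits encoded by mitochondrial DNA with subunits encoded in the nucleus and imported, and dedicated assembly factors put them together without staying in the finished enzyme. Stem cells grown in serum and leukaemia inhibitory factor are known to use both respiration and glycolysis.

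The promoters of these genes are known for sites of NRF1, of ETS factors such as GABPA, and of YY1, so their letters were searched on both strands from 250 bases before to 50 bases after each RefSeq start. Of the 93 genes, 76 had an entry, with 82 promoters, set beside all 32851 promoters of the same length in the RefSeq table (GRCm38.p6). The ETS motif CCGGAAG was in 22 of the 82 (26.8%, against 8.86% of all promoters). The NRF1 palindrome, GCGCA followed by its reverse complement, was in 7 (8.54% against 0.971%), the overlapping form of TGCGCA, any base and GCGC in 9 (11% against 2.44%), and the YY1 motif, AAGATGG followed by CGG, in 7 (8.54% against 0.852%). The CCAAT box of NFY was in 34 (41.5% against 37.4%). The median GC content was 58.5% in these promoters and 52.7% in all, and its part in the shares was not tested. The 82 promoters belong to genes that passed the filter of 1 CPM, while all 32851 were taken without regard to level. The part of this difference was not tested either. By group, the ETS motif was in 6 of 8 promoters of complex IV assembly factors, both entries of Cox16 among them. It was in 4 of 35 in complex I and 2 of 7 in its assembly factors. It was in 2 of 5 in complex III, 3 of 11 in complex IV and 5 of 16 in ATP synthase.

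A few of the members' promoters are shown because the stretch holds no annotated exon. In Ndufaf1 and Cox16 the match also lies close to the start. Each is the 250 bases before the RefSeq start, written 5′ to 3′ on the gene's strand (GRCm38.p6), with NRF1 or ETS motif letters in capitals. Ndufaf4 (chr4:24897833-24898082, plus strand) has both NRF1 forms overlapping 114 bases before the start. Ndufaf1 (chr2:119662835-119663084, minus strand) has the ETS motif 18 bases before the start, and Cox16 (chr12:81485138-81485387, minus strand) has its reverse complement 15 bases before the start.
Ndufaf4: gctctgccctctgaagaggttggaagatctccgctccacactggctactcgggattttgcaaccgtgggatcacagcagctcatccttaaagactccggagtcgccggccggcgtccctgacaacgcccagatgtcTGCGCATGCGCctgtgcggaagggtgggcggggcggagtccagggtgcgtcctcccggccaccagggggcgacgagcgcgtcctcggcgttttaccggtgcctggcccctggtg
Ndufaf1: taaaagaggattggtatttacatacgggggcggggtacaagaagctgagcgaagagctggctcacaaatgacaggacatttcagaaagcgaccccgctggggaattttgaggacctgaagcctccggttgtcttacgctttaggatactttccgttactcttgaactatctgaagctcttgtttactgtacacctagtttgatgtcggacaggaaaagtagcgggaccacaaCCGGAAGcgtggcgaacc
Cox16: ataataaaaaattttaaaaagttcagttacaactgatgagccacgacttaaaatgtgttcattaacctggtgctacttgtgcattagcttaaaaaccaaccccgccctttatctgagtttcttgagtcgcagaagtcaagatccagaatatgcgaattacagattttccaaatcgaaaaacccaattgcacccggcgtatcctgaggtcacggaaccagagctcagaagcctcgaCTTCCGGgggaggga

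In Cox6a1, a complex IV subunit with all of the ETS and NRF1 letters, the matches began 162, 118 and 16 bases before the start. Atp5h and Cox10 on chromosome 11 and Ndufb7 on chromosome 8 had the ETS motif 38, 27 and 20 bases before it. A match is a description of letters and not evidence that a factor binds there.

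The members were abundant, with a median level of 58.4 CPM against 22.6 CPM over all tested genes. Per length, the leading gene of each group by median TPM (counts per transcript length, scaled to a fixed total) was Atp5b, the catalytic beta subunit of ATP synthase (2058 TPM, 1909 to 2110 over clones), Cox4i1 in complex IV (1070 TPM, 844 to 1643), Uqcrh in complex III (553 TPM, 484 to 585) and Ndufa7 in complex I (357 TPM, 328 to 407). Assembly factors lay lower, led by Cox17, the copper chaperone of complex IV (209 TPM, 174 to 210), and Ndufaf2 (47.5 TPM, 40.8 to 66.6). Over the clones, Atp5b spanned less than Cox4i1 on this per-length scale.

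Most members varied little from clone to clone. The range, the highest minus the lowest clone in log2 CPM, was 1 or more (at least a doubling) in 9 of 93 members (9.68%), against 35.3% of all tested genes. The median range was 0.56 over the members and 0.78 over all tested genes. The members with such a range were Ndufa4l2 (3.49), Cox6b2 (1.76), Cox7a1 (1.40), Ndufaf8 (1.37), Cox4i1 (1.14), Atp5g1 (1.10), Ndufaf3 (1.09), Ndufv3 (1.05) and Ndufa13 (1.02). Just inside and outside the limit stood Ndufa13 and Ndufa9 (0.99). The smallest range was 0.23, in Cox15, which helps make the haem a of complex IV (36.9 to 43.4 CPM), although it was 0.87 on the log2(TPM + 1) scale. Some of these calls rested on 1 clone: without clone 11 the range was 0.81 in Cox4i1 and 0.86 in Ndufa13, without clone 14 it was 0.86 in Ndufa13, without clone 10 it was 0.89 and without clone 1 0.82 in Ndufv3, without clone 4 it was 0.72 in Ndufaf3 and 0.87 in Cox7a1, without clone 17 it was 0.79 in Ndufaf3, and without clone 8 it was 0.94 in Ndufaf8. On the log2(TPM + 1) scale Ndufa13 had a range of 0.84 and Uqcrq one of 1.06. Even so, counts of 89 of 93 members (95.7%) differed between the 9 libraries beyond Poisson counting error, against 89.4% of all tested genes (chi-square over libraries, Benjamini-Hochberg adjusted), a test that compares libraries and not conditions. The members whose differences did not pass it were Atp5s, Ndufs3, Ndufs5 and Cox20 (adjusted p = 0.19, 0.17, 0.58 and 0.47). Among 419 abundant genes with short transcripts outside the set 22% had a range of 1 or more. In 10 of the 93 members, against 4.33% of all tested genes, 1 clone stood apart from the other 8 by a gap beyond Dixon's 95% limit.

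**Figure D1:**
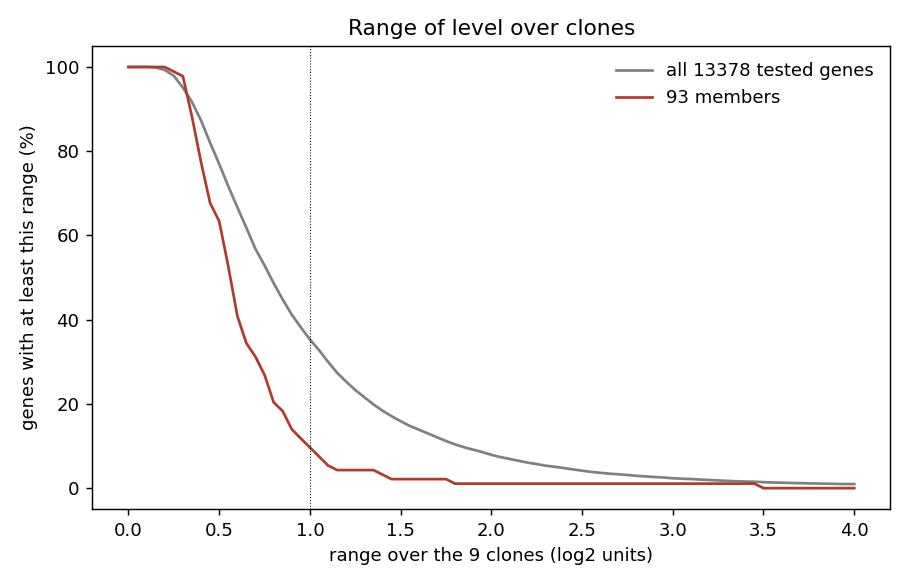
Share of genes (y axis, %) whose range over the 9 clones is at least the value on the x axis (log2 units), for the 93 members and all 13378 tested genes. At a range of 1 (dotted line) the members stand at 9.68% and all tested genes at 35.3%.

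By group, the median range was 0.55 in complex I, 0.53 in its assembly factors, 0.53 in complex III, 0.58 in complex IV, 0.64 in its assembly factors and 0.42 in ATP synthase. A range of 1 or more was found in 3 of 38 complex I genes, 2 of 8 of its assembly factors, 3 of 13 complex IV genes, 1 of 16 ATP synthase genes and no complex III gene or complex IV assembly factor. ATP synthase thus had the smallest median range of these groups. Its smallest ranges were in Atp5k (0.35) and Atp5mpl (0.36), small membrane-part subunits.

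To see whether a complex stood higher or lower as a whole, each gene's deviation from its own median over the 9 clones was taken, and then the median over the genes of a complex. Clone 11 was low in each of the 4 complexes, at −0.16 in complex I, −0.19 in complex III, −0.27 in complex IV and −0.18 in ATP synthase. Of the 93 members, 70 (75.3%) lay below their own median there, against 45.7% of all tested genes, and 40 (43.0%) had their lowest level there, against 14.7%. Clone 1 was the highest in complex I, at 0.20, where 32 of 38 genes lay above their own median, against 47.1% of all tested genes. The highest level fell in clone 1 for 31 members (33.3%, against 14.9%) and in clone 4 for 23 members (24.7%, against 15.2%). Clone 1 was also the library with the fewest counts, and the part of this was not tested.

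Other values moved with the low levels of clone 11, and their part in them was not tested. The members have short leading transcripts (median 678 bases against 2499 over all tested genes), and of the 419 abundant genes of short transcripts outside the set, 32.0% were also lowest in clone 11, with a median deviation of −0.10. On the scale log2(TPM + 1), which corrects for effective length, the median of all tested genes moved by 0.10 in clone 11 and by −0.09 in clone 1, the members lowest in clone 11 numbered 16 (17.2%, against 6.54% of all tested genes), and those highest in clone 1 numbered 18 (19.4%, against 7.62%). On that scale the deviation of all members was −0.03 in clone 11 and 0.04 in clone 1, against −0.16 and 0.15 in log2 CPM. Clone 11 also had the highest fibroblast marker sum and the lowest stem cell marker sum, and in bulk RNA fewer cells of a type and less RNA per cell cannot be told apart.

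**Figure D2:**
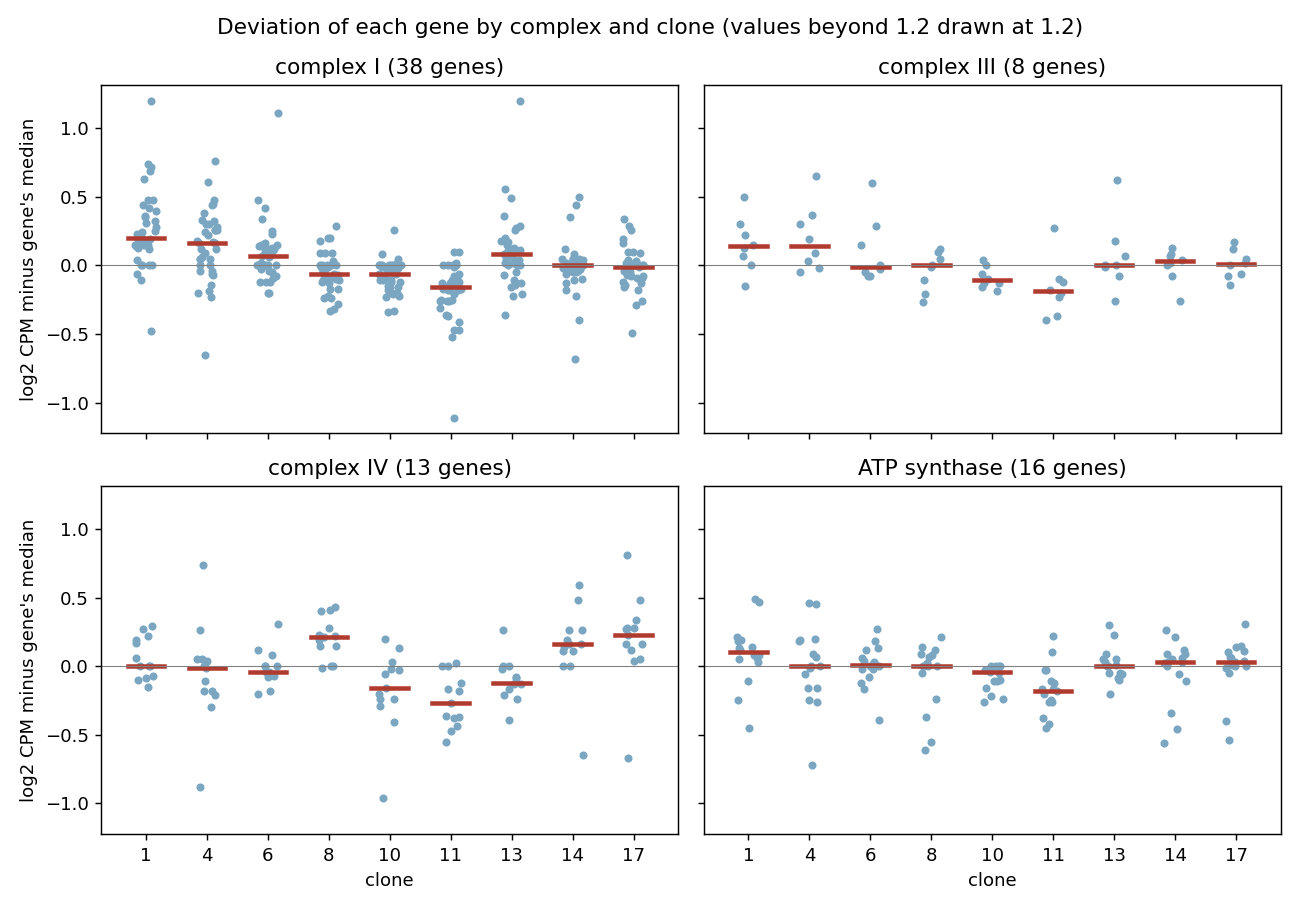
Deviation of each gene from its own median over the 9 clones (y axis, log2 CPM) by clone (x axis) for the 4 complexes; points are genes and red bars are medians over genes, with points beyond 1.2 drawn at 1.2. The bars for clone 11 lie lowest in each panel, and those for complex IV lie highest in clones 8, 14 and 17.

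Complex IV was set apart from complex I by clones 8, 14 and 17. The median deviation of its 13 genes was 0.21, 0.16 and 0.23 in these clones and between −0.27 and 0.00 in the other 6, whereas complex I was at −0.06, 0.00 and −0.01 in the former. Genes above their own median numbered 12 of 13 in clone 17, against 46.5% of all tested genes, 10 of 13 in clone 14, against 46.1%, and 10 of 13 in clone 8, against 44.9%. The exception in clone 17 was Cox7a1. On the log2(TPM + 1) scale the complex IV medians in clones 8, 14 and 17 were 0.25, 0.07 and 0.17.

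Complex IV was also set against complex I within each library. A single scale factor per library drops out of such a ratio, while differences in effective length between libraries do not. The summed TPM of complex IV over that of complex I was 1.09, 1.08 and 1.09 in clones 8, 14 and 17. It was 0.783 in clone 1, 0.797 in clone 4, 0.858 in clone 6, 0.881 in clone 10, 0.836 in clone 11 and 0.796 in clone 13. No value of the first set overlapped those of the second. Complex IV summed to 5819 to 5876 TPM in clones 8, 14 and 17 and to 4415 to 4962 TPM elsewhere. Complex I summed to 5368 to 5394 TPM in those 3 clones, and to 5282 to 6085 TPM in the others. Without Cox4i1, the most abundant subunit, the ratio was 0.812, 0.774 and 0.804 in clones 8, 14 and 17 and 0.615 to 0.676 in the others. Without the members on chromosomes 8 and 11 it was 0.868, 0.839 and 0.866 against 0.647 to 0.710. The clones were singled out after their values were seen, so these are descriptions of the libraries with no test.

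**Figure D3:**
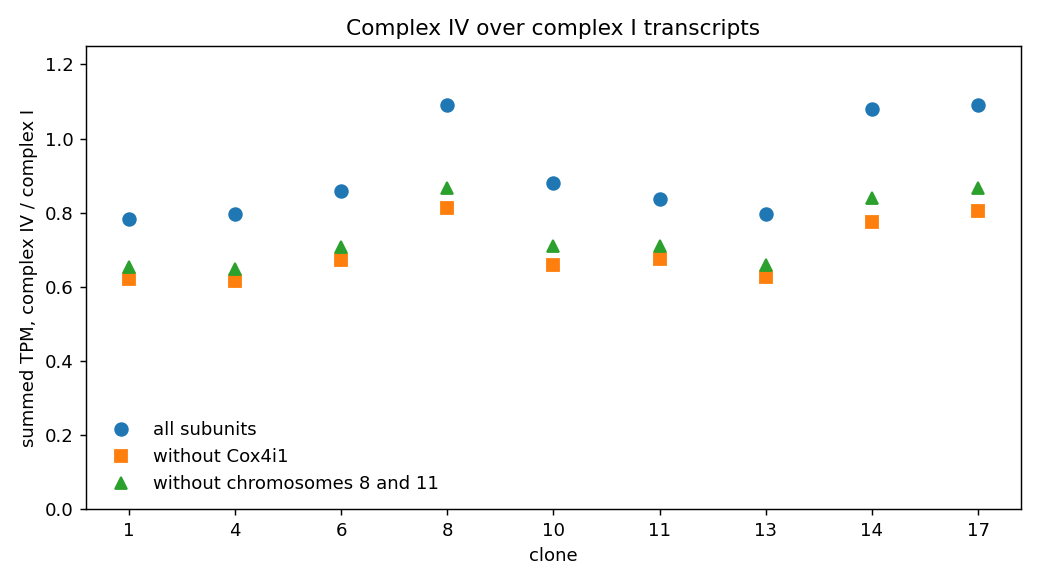
Summed TPM of complex IV genes divided by that of complex I genes (y axis) by clone (x axis), with all subunits, without Cox4i1, and without genes on chromosomes 8 and 11. In each of the 3 versions clones 8, 14 and 17 lie above the other 6, as with all subunits at 1.08 to 1.09 against 0.783 to 0.881.

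Among the complex IV genes, Cox4i1 (chr8:120668222-120674207, GRCm38), the common form of the subunit IV that contacts the catalytic core, had 506 CPM in clone 10, 338 in clone 11, 426 in clone 13, 746 in clone 14, 690 in clone 17, 465 in clone 1, 494 in clone 4, 468 in clone 6 and 655 in clone 8. It was thus highest in clones 8, 14 and 17 and lowest in clone 11. From clone 11 to clone 14 the fold was 2.21 (exact 95% Poisson interval 2.13 to 2.28, counting error only, as for the folds below). Its exons overlap those of Emc8 on the opposite strand, and no strand setting of the counting is named in the sources used here. On the log2(TPM + 1) scale its range was 0.96. Cox6b1, the common subunit VIb, spanned 114 to 169 CPM, lowest in clone 11 and highest in clone 8. Cox6a1 spanned 109 to 180 CPM, lowest in clone 11 and highest in clone 4, and Cox8a 96.9 to 143 CPM. Cox7b had its lowest level in clone 4 and its highest, 150 CPM, in clone 8 (range 0.58). The steadiest were Cox5b (81.6 to 104 CPM, range 0.35) and Cox7a2 (82.4 to 108 CPM, range 0.39, or 0.24 without clone 8).

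Complex IV also has forms of its subunits known from particular tissues. Cox6b2, the testis form of subunit VIb (chr7:4751792-4753094), was at 4.85 CPM in clone 10, 7.34 in clone 11, 11.5 in clone 13, 13.3 in clone 14, 16.8 in clone 17, 9.07 in clone 1, 5.11 in clone 4, 9.56 in clone 6 and 12.9 in clone 8. The fold from clone 10 to clone 17 was 3.47 (2.63 to 4.62), and per length Cox6b2 made up 2.74% (clone 4) to 9.59% (clone 17) of Cox6b1 and Cox6b2 together. Cox7a1, the heart and muscle form of subunit VIIa (chr7:30184144-30186078), was lowest in clones 17 and 14, at 2.16 and 2.19 CPM. Its median was 3.51 CPM and clone 4 had 5.95 CPM, a fold of 2.76 (1.79 to 4.36) from clone 17. In clone 8 Cox7a1 had 3.50 CPM, near its median, beside 12.9 CPM of Cox6b2. Its share of Cox7a1 and Cox7a2 was 3.82% in clone 17 and 12.1% in clone 4. Clone 17 was therefore highest for one form and lowest for the other, and clone 4 near the opposite end of both.

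Other such forms were close to the limit that a count of 0 allows, 3 counts or 0.209 to 0.293 CPM by clone. Cox4i2, the lung form induced by low oxygen, had 0.219 to 0.575 CPM and at most 0.147% of subunit IV per length. Cox7b2 had 0.287 to 0.869 CPM, Cox8c 0 to 0.229 CPM and Cox8b 0 to 0.195 CPM. Cox6a2, the heart and muscle form, had no count in any of the 9 clones, which allows a level of up to 0.209 to 0.293 CPM.

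In complex I, 6 nuclear core subunits had ranges of 0.28 to 0.76, around the median of 0.55 of the complex. Ndufv1, which binds NADH and flavin, spanned 149 to 252 CPM, lowest in clone 11 and highest in clone 4. Ndufs8, which carries iron-sulphur clusters, and Ndufs3, of the same arm, had the smallest ranges of the complex (0.28 and 0.31), at 39.2 to 47.5 and 26.8 to 33.2 CPM, and Ndufs3 had one of 0.20 without clone 1. Ndufs1, Ndufs7 and Ndufv2 had ranges of 0.37, 0.52 and 0.50.

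The widest range of all members was that of Ndufa4l2 (chr10:127514967-127517154), a homologue of Ndufa4 known as a target of the hypoxia factor HIF1. It had 7.80 CPM in clone 1, 3.55 in clone 13, 3.14 in clone 6, 2.44 in clone 4, 1.38 in clone 10, 1.07 in clone 8, 0.934 in clone 17, 0.802 in clone 14 and 0.559 in clone 11. The fold from clone 11 to clone 1 was 14 (6.75 to 33.4), and without clone 1 the range was 2.39. Per length it made up 0.378% (clone 14) to 3.55% (clone 1) of Ndufa4 and Ndufa4l2 together. Clones 1, 4, 6 and 13 had the 4 highest levels. Ndufa4 itself, which is now assigned to complex IV although its symbol places it here, spanned 85.7 to 125 CPM, lowest in clone 11 and highest in clone 8. Exons of Ndufa4l2 overlap those of Shmt2 (mean 135 CPM) on the opposite strand.

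Ndufv3, an accessory subunit of the NADH-binding arm (chr17:31520115-31531331), had 42.6 CPM in clone 10, 48.2 in clone 11, 75.2 in clone 13, 53.5 in clone 14, 47.4 in clone 17, 88.1 in clone 1, 69.5 in clone 4, 71.9 in clone 6 and 47.6 in clone 8, a fold of 2.07 (1.86 to 2.30). Clones 1, 4, 6 and 13 had the highest levels of Ndufv3, a split seen only in the values. How many of all tested genes split in this way is not given here. Ndufa9 (chr6:126821721-126849136), which binds NADPH at the junction of the arms, had 159 CPM in clone 1, 141 in clone 13, 133 in clone 6, 106 in clone 4 and 80.0 to 95.2 in the other 5. The 50 nearest genes outside the set deviated in the same clones, with medians of 0.33, 0.30 and 0.25 in clones 1, 13 and 6 and −0.12 in clone 4, beside 0.74, 0.56, 0.48 and 0.16 in Ndufa9. Ndufb3, of the membrane arm, spanned 27.3 CPM in clone 8 to 51.8 CPM in clone 1.

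Of the complex I assembly factors, Ndufaf3 (chr9:108565537-108567434) spanned 7.76 CPM in clone 17 to 16.7 CPM in clone 4, with a median of 11 CPM and a fold of 2.15 (1.70 to 2.74). Its exons overlap those of Impdh2 (mean 702 CPM) on the opposite strand. Ndufaf8 (chr11:120098928-120100705) spanned 5.14 CPM in clone 8 to 13.5 CPM in clone 13, a fold of 2.63 (1.99 to 3.51). Ndufaf4 was highest in clone 8 (33.3 CPM) and lowest in clone 4 (19.8 CPM), and Ndufaf7, a methyltransferase, and Ndufaf5 varied least (0.33 and 0.44), although Ndufaf7 had a range of 0.83 on the log2(TPM + 1) scale.

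In complex III, Uqcrc1, a large core protein on the matrix side, had 134 CPM in clone 11, a median of 177 CPM and 217 CPM in clone 4, and its range of 0.70 was 0.43 without clone 11. Its partner Uqcrc2 had a range of 0.31 (136 to 168 CPM), or 0.18 without clone 11. Uqcr10 and Uqcrq had the largest ranges (0.90 and 0.89), and both lie on chromosome 11. Uqcrfs1, the Rieske iron-sulphur protein, spanned 95.7 to 128 CPM, and Uqcrh, the hinge protein, 130 to 184 CPM, with a range of 0.50, or 0.29 without clone 11. Clone 11 held the lowest level in 4 of these 8 genes.

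In ATP synthase, both head subunits were lowest in clone 11 and highest in clone 4. Atp5b had 2000 CPM in clone 11, a median of 2401 CPM and 2712 CPM in clone 4, a fold of 1.36 (1.34 to 1.38), and Atp5a1, the alpha subunit, 639 to 944 CPM (range 0.56). The range of Atp5b was 0.44 in log2 CPM, 0.28 without clone 11 and 0.14 on the log2(TPM + 1) scale. Of the 16 genes, 9 were lowest in clone 11. The subunit c of the rotating ring is encoded by 3 genes that give the same mature protein. Atp5g1 (chr11:96068852-96075670) had 335 CPM in clone 1, 325 in clone 4, 288 in clone 6, 280 in clone 13, 239 in clone 10, 221 in clone 11, 173 in clone 14, 165 in clone 17 and 156 in clone 8, a fold of 2.14 (2.03 to 2.26). Clones 8, 14 and 17 had the lowest levels of Atp5g1. The other genes of chromosome 11 were also low there, with median deviations of −0.36 to −0.40. Atp5g3 spanned 159 to 208 CPM, lowest in clone 1, and Atp5g2 8.37 to 15.3 CPM.

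For complex IV assembly, Cox10 and Cox15 make haem a, Cox11, Cox17 and Cox19 deliver copper, and Cox14, Cox16, Cox18 and Cox20 act on the mitochondrially made subunits. Cox14 had the widest range (0.83), at 9.27 CPM in clone 10 to 16.5 CPM in clone 14. Clone 10 had the lowest level in 4 of the 9, against 8.47% of all tested genes, and their median deviation there was −0.24. Cox20, at 1.24 to 2.22 CPM, did not differ beyond counting error, and it overlaps Hnrnpu on the opposite strand. Cox17 spanned 39.2 CPM in clone 10 to 52.2 CPM in clone 4.

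By chromosome, the 93 members lie on 19 chromosomes. A chromosome was described where it held at least 3 members and its other genes had a median deviation of 0.2 or more in some clone, which left chromosomes 8 and 11. Elsewhere the largest such median was 0.14, on chromosome 6. Of the 10 members on these 2 chromosomes, 4 had a range of 1 or more, against 35.3% of all tested genes. These were Cox4i1, Ndufa13, Atp5g1 and Ndufaf8, from the 9 members with such a range. The share among the other genes of these 2 chromosomes is not given here.

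On chromosome 8, the 713 other genes had median deviations of 0.28 in clone 8, 0.27 in clone 10, 0.32 in clone 14 and 0.32 in clone 17, and of −0.01 to −0.21 in the other 5. The 3 members had medians of 0.20, 0.03, 0.50 and 0.34 in those 4 clones, and of −0.52 in clone 11, where the other genes were at −0.18. Ndufa13 (chr8:69894180-69902558), an accessory complex I subunit also known as GRIM-19, had 127 CPM in clone 14, 114 in clone 17, 103 in clone 8, 92.2 in clone 1, 89.9 in clone 10, 82.5 in clone 6, 76.4 in clone 4, 69.9 in clone 13 and 62.5 in clone 11. Ndufb7 (chr8:83566671-83571626), a membrane-arm subunit, spanned 55.0 to 97.1 CPM, lowest in clone 11 and highest in clone 14, and had 91.3 CPM in clone 10. Clone 10 thus had Ndufb7 at the level of its chromosome and Cox4i1 and Ndufa13 below it.

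On chromosome 11, the 1066 other genes had median deviations of −0.40 in clone 8, −0.36 in clone 14 and −0.39 in clone 17, and of 0.02 to 0.12 in the other 6. The 7 members were at −0.41, −0.34 and −0.21 in those clones. They were at 0.40 and 0.37 in clones 1 and 4, where the other genes were at 0.12. Atp5h, subunit d in the stalk of ATP synthase, had 152, 156 and 149 CPM in clones 8, 14 and 17 and 193 to 274 CPM elsewhere. Cox10 had 30.8, 31.4 and 35.3 CPM there and 40.7 to 47.9 CPM elsewhere. Uqcr10 had 88.1, 85.4 and 92.6 CPM there and 93.8 to 160 CPM elsewhere. Uqcrq and Cox11 did not follow this, since Uqcrq was lower in clone 1 (50.1 CPM) than in clones 14 and 17 (55.7 and 52.6 CPM), and Cox11 had 18.6 CPM in clone 1 but 24.8 CPM in clone 14. The deviation of the 7 members in clone 4 was 0.24 when clone 1, 8, 10 or 17 was left out, and in clone 13 it was 0.11, instead of 0.23, when clone 8, 11, 14 or 17 was.

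**Figure D4:**
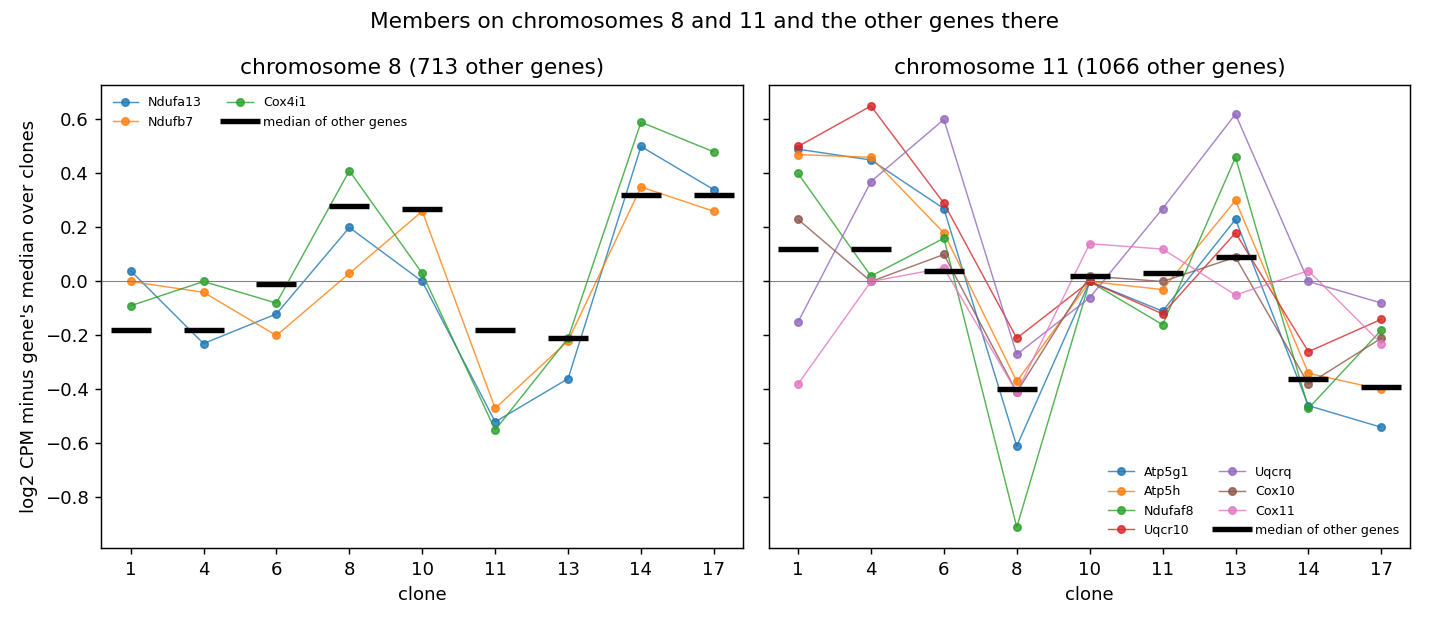
Deviation of each member on chromosomes 8 and 11 from its own median (y axis, log2 CPM) by clone (x axis), with black bars for the median of the other tested genes of that chromosome; lines only join values of 1 gene. On chromosome 11 the bars stand at −0.36 to −0.40 in clones 8, 14 and 17, where most members lie low too.

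With the median deviation of the other genes of the chromosome subtracted in each clone, 5 of 93 members (5.38%) had a range of 1 or more, against 32.9% of all tested genes. These were Ndufa4l2, Cox6b2, Cox7a1, Ndufaf3 and Ndufv3. Cox4i1, Ndufa13, Atp5g1 and Ndufaf8 then had ranges of 0.64, 0.56, 0.57 and 0.88. With the 50 nearest genes as the reference in place of the chromosome, the range of Ndufa13 was 0.92, that of Ndufv3 was 0.95, and 4 members had a range of 1 or more. The count was 3 without clone 17 and 2 without clone 4. The lead of complex IV in clones 8, 14 and 17 stood at 0.19, 0.16 and 0.17 after the subtraction, and at 0.20, 0.15 and 0.20 over the 12 of its genes on chromosomes other than 8 and 11.

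Processed pseudogenes share sequence with several members, and the counting divides reads between them. For 16 members a pseudogene held at least 10% of the gene's 31-base words, and in 4 the pseudogenes were given more counts than the gene. For Atp5g2 the pseudogenes Gm10175 and Gm10231 had 111 to 135 CPM against 8.37 to 15.3 CPM for the gene, and the sum of all 3 had a range of 0.32 where the gene alone had 0.85. Gm15920 had 33.6 to 45.3 CPM against 13.8 to 23.4 CPM for Ndufa12, and the range of 0.76 was 0.43 for the sum and 0.33 for the gene without clone 1. Ndufb4c had 21.3 to 37.3 CPM against 7.09 to 12.2 CPM for Ndufb4. BC002163 had 15.4 to 26.1 CPM against 15.0 to 18.7 CPM for Ndufs5, and exceeded it in the median. The levels of these 4 genes are therefore uncertain. Copies of Cox7c and Cox7a2l, a factor that joins complexes III and IV, stayed below the gene in each clone, and the ranges of the sums were 0.54 and 0.70.

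**Figure D5:**
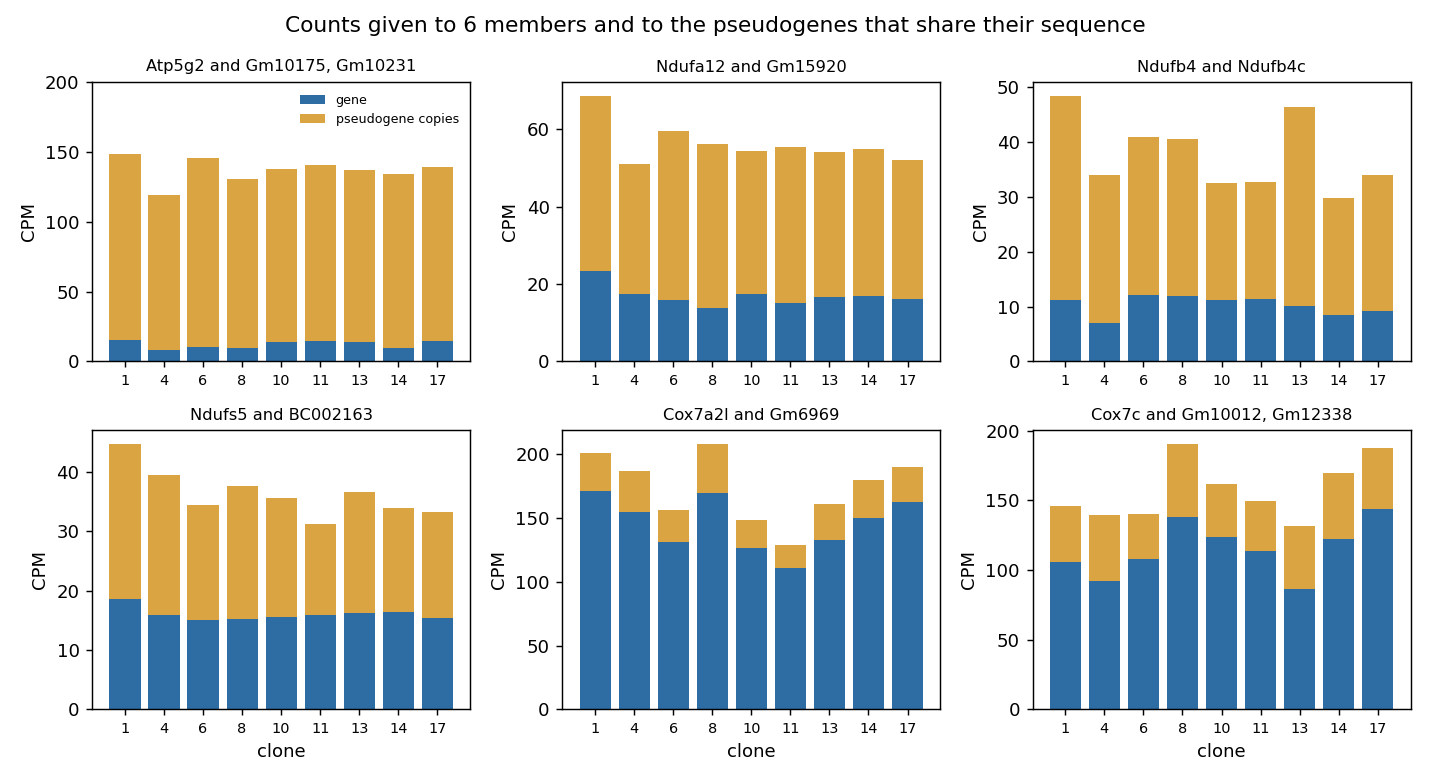
CPM (y axis) given to 6 members (blue) and, stacked above, to the pseudogenes sharing at least 10% of their 31-base words (yellow), by clone (x axis). For Atp5g2 the pseudogenes hold 111 to 135 CPM and the gene 8.37 to 15.3 CPM.

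Genes around these complexes were described from lists. Of all tested genes, 35.3% had a range of 1 or more. The 13 mitochondrially encoded messages had a range of 1 or more in 11 and a median range of 1.24. Their median deviation was 0.63 in clone 11 and −0.54 in clone 4, while that of the nuclear members was −0.16 and 0.05 there. Their summed level was lowest in clone 4 (4621 CPM) but highest in clone 1 (8494 CPM), with 8170 CPM in clone 11. In clone 11 mt-Co1, the most abundant of them, was at its own median (2884 CPM). The libraries were made from poly(A) RNA, and the part of that selection in the mitochondrial levels was not tested. Complex II, the succinate dehydrogenase encoded wholly in the nucleus, had no gene of 4 with a range of 1 or more and a median range of 0.45. Of complex IV assembly factors outside the naming rule, 2 of 16 had such a range, Taco1 and Coa3, each lowest in clone 8 (5.92 and 19.0 CPM). Of 10 further complex I assembly factors none had it, nor did any of 16 citric acid cycle genes (median range 0.40). Among 5 complex III assembly factors 1 had it, Uqcc3, and among 5 assembly and inhibitor genes of ATP synthase 1 had it, Atpaf2, at 29.4 CPM in clone 17 to 62.1 CPM in clone 1. Of the 78 mitochondrial ribosomal protein genes 5 had it, with a median range of 0.54, and their median deviation was highest in clone 1 (0.15), as in complex I. Of 13 biogenesis regulators that passed the filter 1 had it, the coactivator gene Ppargc1b, while Nrf1 (76.8 to 94.3 CPM), Gabpa (131 to 179 CPM) and Yy1 (106 to 131 CPM) had ranges of 0.29, 0.45 and 0.31. Of the genes named here, Taco1, Coa3 and Atpaf2 lie on chromosome 11. Its genes outside the set had median deviations of −0.40, −0.36 and −0.39 in clones 8, 14 and 17.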

How the data were processed

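The RNA-seq libraries of 9 E14 clones were each taken as 1 sample. Libraries came from a stranded mRNA kit, per the labels' protocols, and the submitters' processing notes name the builds mm10 and GRCm38 and the tools kallisto 0.43.1, Trimmomatic 0.33, FastQC and CASAVA 1.8. Per the file headers, the deposited tables list 115270 transcripts with estimated counts, TPM values and lengths, plain and effective. Estimated counts were deposited by the authors as they came from the counter, which divides reads between similar transcripts. TPM values were scaled for length and library size before the authors deposited them. The annotation release and the counter's strand setting are not given in these sources.

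Transcripts were matched by identifier to GENCODE M21 (113580, or 98.534%), and counts were summed to genes. Unmatched transcripts held 0.641 to 0.773% of counts and were left out. TMM factors (edgeR 4.0.16, R 4.3.3) and log2 CPM with a prior count of 2 were computed for the 13378 genes that averaged at least 1 CPM. Deviations are from a gene's median over clones. No group comparison was made. Folds carry exact 95% intervals for 2 Poisson counts; these and the limit of 3 counts cover counting error only. The closest pair of clones, 13 and 6, still differed in 1594 genes beyond counting error. Steps were tested on simulated data. One member is counted but not reported here by name.

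The members and lists were chosen with earlier results of these data known. The rule named members with a range of 1 or more, the 3 largest and 2 smallest ranges and the most abundant gene per group, members of chromosomes 8 and 11, those with a clone apart, tissue-restricted forms with their partners, and those that failed the filter; other genes were named after their values were seen. Alternatives were median-ratio size factors (DESeq2 1.42.0), a prior count of 0.5, log2(TPM + 1), a minimum of 5 CPM or none, pseudogenes named after a member added, the 50 nearest genes as reference, and each clone left out. Adding pseudogenes that share sequence, and the ratio of complex IV to complex I in CPM, without Cox4i1 or without chromosomes 8 and 11, were chosen after seeing the data. Scripts ran on scipy 1.17.1, pandas 2.3.3, numpy 2.4.6 and Python 3.11.15.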

Additional observations from a re-analysis of the deposited data

Results flagged for a closer look

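In 10 of 93 members, 9 of which are described, 1 clone stood apart from the other 8 by more than Dixon's 95% limit for the gap to the next clone over the whole range, which chance gives in about 1 of 20 genes. Of all tested genes, 4.33% passed the same limit. Clone 1 was high in Ndufa12 (23.4 CPM, others 13.8 to 17.3), Ndufa3 (32.3 CPM, others 23.3 to 27.0), Ndufb6 (54.7 CPM, others 41.4 to 46.7) and Ndufs5 (18.7 CPM, others 15.0 to 16.5). It was low in Ndufab1, the mitochondrial acyl carrier protein (36.3 CPM, others 46.0 to 54.5). Clone 11 was low in Atp5j2 (102 CPM, others 126 to 146). Clone 10 was low in Cox19 (10.3 CPM, others 13 to 16.1). Clone 4 was high in Ndufa2 (62.5 CPM, others 41.6 to 49.7), and clone 6 was high in Ndufaf2 (22.4 CPM, others 16.0 to 18.3). The ranges without that clone were 0.33 for Ndufa12, 0.21 for Ndufa3, 0.17 for Ndufb6, 0.24 for Ndufab1, 0.21 for Atp5j2, 0.31 for Cox19, 0.26 for Ndufa2 and 0.19 for Ndufaf2. The counts of Ndufs5 did not differ between libraries beyond counting error, and those of Ndufa12 and Ndufs5 are shared with a pseudogene.

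Of the medians over a group, that of complex IV assembly factors was −0.24 in clone 10 (others −0.03 to 0.06), and that of ATP synthase was −0.18 in clone 11 (others −0.04 to 0.10).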

How the results depend on the processing

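Over 129 results and 1981 alternative values, 1901 stayed within their tolerance (0.1 for a deviation, 0.14 for a range, 1.5 times for a count), 80 moved and 0 reversed direction. No paired analysis was possible because the labels put no clone in a group. The count of members with a range of 1 or more after the chromosome was subtracted was 10 with no filter, 3 with a minimum of 5 CPM, 8 on the log2(TPM + 1) scale and 2 to 5 with a clone left out. On the log2(TPM + 1) scale the clone 11 deviations were −0.03 over all members, −0.03 in complex I and −0.07 in complex III. They were −0.13 in complex IV and −0.04 in ATP synthase, and that of all members in clone 1 was 0.04. The median of all tested genes itself moved by 0.10 in clone 11 and by −0.09 in clone 1 there. On that scale 16 members were lowest in clone 11 and 18 highest in clone 1, the median range of complex I assembly factors was 0.78, and the members of chromosome 8 stood at 0.15 in clone 10 and −0.32 in clone 11 and those of chromosome 11 at 0.20 in clone 4. With no filter complex IV was at −0.04 in clone 10. Leaving out a clone gave 0.11 to 0.28 for the chromosome 11 members in clone 13 and 0.24 to 0.40 in clone 4. The highest over the lowest ratio of complex IV to complex I was 1.39, and it was 1.39 in summed CPM, 1.32 without Cox4i1 and 1.34 without chromosomes 8 and 11. The share of all tested genes with such a range was 46.6% with no filter, 23.24% at 5 CPM and 27.78% on the log2(TPM + 1) scale. Each clone is a single library, so differences could be set against counting error alone.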

Other observations

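Genes next to the electron transport chain that lie outside the symbols above also differed between clones; they were chosen after their values were seen. Cyct, the testis form of cytochrome c, had 0.942 to 2.05 CPM in clones 1, 4, 6, 10, 11 and 13 and 0.143 to 0.292 CPM, at or under the limit of 3 counts or close to it, in clones 8, 14 and 17. The ratio of clone 1 to clone 8 was 14 (exact 95% interval 3.51 to 126, counting error only). Cycs, the somatic form, had its lowest level in clone 4 (25.2 CPM) and its highest in clone 10 (44.0 CPM). Ppargc1b, a coactivator of mitochondrial genes, had 6.68 CPM in clone 17 and 1.75 to 3.72 CPM in the other 8, and its relative Ppargc1a had at most 0.152 CPM. Mdh2, the mitochondrial malate dehydrogenase, was lowest in clone 1 (214 CPM) and highest in clone 14 (374 CPM), whereas complex I as a group was highest in clone 1.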
